A study of Mus musculus with 8 samples.

Results

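Compact H3K27me3 regions shared by all livers were autosomal stretches under 60 kb that lay under islands of the mark in each of 6 mouse livers. Islands are the enriched intervals that the authors called in each library. Merging those of the 6 lists from 600 to 1100 bp fragments gave 14560 union regions. Members were chosen by 2 measured values, the cover in each list, which had to reach 50% of the region, and the merged width, which had to be under 60 kb, and 421 autosomal regions met both. They made up 2.89% of the union regions and, with 14.95 Mb, 2.79% of the union length. A further 420 autosomal regions met the same cover rule at widths of 60 kb or more and are called wide shared regions here.

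The livers came from male CD-1 mice, an outbred stock, at 7 weeks of age. In the TCPOBOP group, 3 mice were given TCPOBOP at 3 mg/kg, an agonist of the nuclear receptor CAR that induces drug-metabolising enzymes. In the vehicle group, 3 mice received 1% DMSO in corn oil, and livers of both groups were collected 3 h after injection. Each library came from an individual liver, and a library of fragments over 1100 bp was made in addition from the ChIP sample of replicate 1 of each treatment. Whole liver holds several cell types, so the islands are those of their mixture, and a share of cells with the mark cannot be told apart from its level per cell.

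H3K27me3 is laid down by Polycomb repressive complex 2, whose catalytic subunit is Ezh2 or Ezh1, and it is bound by complexes that compact chromatin and keep genes silent. In adult tissues it typically marks CpG-rich promoters of genes that guide embryonic development and are not used in that tissue. Genes with high activity in hepatocytes usually lack it.

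Promoter sequences are shown for a few of the genes named at these regions. The 250 bases before the start of each gene were read from RefSeq sequences of the build GRCm38.p6, while the regions themselves are in mm9. In the lines that follow, each sequence runs 5′ to 3′ in the direction of its gene and capitals mark every CG dinucleotide, which reads the same on both strands. Wnt1 (chr15:98789607-98789856, plus strand), Sox2 (chr3:34649745-34649994, plus strand), Isl1 (chr13:116309689-116309938, minus strand) and Pou4f1 (chr14:104468000-104468249, minus strand) are shown as CG-rich examples of genes whose start lay inside a compact region. Nr2f2 (chr7:70366747-70366996, minus strand) is shown because its compact region lay beside the start, and Alb (chr5:90460620-90460869, plus strand), which encodes serum albumin, as a hepatocyte gene without an island.
Wnt1: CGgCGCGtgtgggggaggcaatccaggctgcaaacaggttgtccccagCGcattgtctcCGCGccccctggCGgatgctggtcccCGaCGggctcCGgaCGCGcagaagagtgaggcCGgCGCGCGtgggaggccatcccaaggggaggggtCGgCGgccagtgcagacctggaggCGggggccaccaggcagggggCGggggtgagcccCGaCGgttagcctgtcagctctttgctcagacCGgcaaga
Sox2: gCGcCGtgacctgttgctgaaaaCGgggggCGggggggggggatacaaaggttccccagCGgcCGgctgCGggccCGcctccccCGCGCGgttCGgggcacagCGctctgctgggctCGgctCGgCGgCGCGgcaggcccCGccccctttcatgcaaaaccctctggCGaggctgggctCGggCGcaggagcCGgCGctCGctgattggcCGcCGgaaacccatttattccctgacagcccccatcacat
Isl1: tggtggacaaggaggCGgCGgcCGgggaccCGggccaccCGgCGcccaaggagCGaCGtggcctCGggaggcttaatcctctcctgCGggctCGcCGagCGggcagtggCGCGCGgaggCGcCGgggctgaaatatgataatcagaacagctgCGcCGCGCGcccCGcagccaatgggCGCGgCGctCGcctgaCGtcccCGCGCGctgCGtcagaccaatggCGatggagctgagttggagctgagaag
Pou4f1: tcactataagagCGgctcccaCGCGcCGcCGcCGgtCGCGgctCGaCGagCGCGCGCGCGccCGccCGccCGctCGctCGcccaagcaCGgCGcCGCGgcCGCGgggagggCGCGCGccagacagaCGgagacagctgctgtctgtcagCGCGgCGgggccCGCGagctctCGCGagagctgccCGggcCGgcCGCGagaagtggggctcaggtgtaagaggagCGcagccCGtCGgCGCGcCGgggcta
Nr2f2: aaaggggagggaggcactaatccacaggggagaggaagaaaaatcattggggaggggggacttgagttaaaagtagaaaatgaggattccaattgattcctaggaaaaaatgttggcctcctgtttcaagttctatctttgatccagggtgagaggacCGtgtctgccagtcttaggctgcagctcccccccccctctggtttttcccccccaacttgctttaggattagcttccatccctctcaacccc
Alb: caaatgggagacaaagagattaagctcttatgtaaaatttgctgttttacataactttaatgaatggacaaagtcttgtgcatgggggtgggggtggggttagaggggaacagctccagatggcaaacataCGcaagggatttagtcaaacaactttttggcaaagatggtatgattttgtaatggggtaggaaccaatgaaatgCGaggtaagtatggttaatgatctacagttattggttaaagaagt
In these windows Wnt1 held 23 CG dinucleotides, Sox2 27, Isl1 33 and Pou4f1 47, while Nr2f2 held 1 and Alb 2. Of all 32851 promoters in the table, 13.3% held as many as Wnt1, 8.56% as many as Sox2, 4.03% as many as Isl1 and 0.25% as many as Pou4f1. The share was 92.1% for Nr2f2 and 81.2% for Alb. These examples are not typical of all genes with a start inside a compact region, since Olig3 held 4 CG, Barhl1 7 and Neurog2 8. Among 23 genes named at compact regions, 18 had a promoter in the table, with a median of 19 CG (range 1 to 47), and 15 of these were above the median of 6 over all promoters. Among the 11 liver-expressed genes used as a tissue check, 9 had one, with a median of 3 (range 2 to 7), and 1 was above that median. Of the 23 genes, Skor1, Sp9, Hmx3, Prdm12, Prdm8 and Dmrta2 were added after their dense regions had been seen. These 6 held 10 to 36 CG. The counts describe these windows only, and other starts of the same genes were not examined.

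Developmental genes were looked up in a list of 104 loci, with a further 12 loci of genes expressed in hepatocytes. Positions were approximate mm9 gene starts taken from general knowledge, each widened by 30 kb to both sides, so the window edges do not follow an annotation. After a check of the spacing between neighbouring genes, 97 developmental and 11 liver-expressed loci were used. A compact shared region overlapped 17 of the 97 developmental windows, a wide shared region alone overlapped 39, and the other 41 held islands that did not meet the sharing rule. Windows of this width placed along the autosomes met a compact region at 1.64% of positions and a wide shared region at 3.28%. An island lay in the window in all 6 livers at 89 of the 97 loci. None of the 11 liver-expressed windows met a compact region. Alb, Apoa1 and Apob (serum albumin and apolipoproteins), Fgb (fibrinogen), Cps1 (the first enzyme of the urea cycle), G6pc (glucose production) and Trf (transferrin) had no island in any of the 6 livers. Hnf4a, a hepatocyte transcription factor gene, met a wide shared region, with 10.0 to 30.7% of its window under islands in the 6 livers. Cyp2e1, a cytochrome P450 gene, met one too, with 31.3 to 65.3%. Ambp, which encodes a plasma protein precursor, held unshared islands in 5 of the 6 livers, over at most 16.7% of its window. Pck1, an enzyme gene of glucose production, held them in vehicle replicates 1 and 3, over 20.3 and 24.3%.

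**Figure D1:**
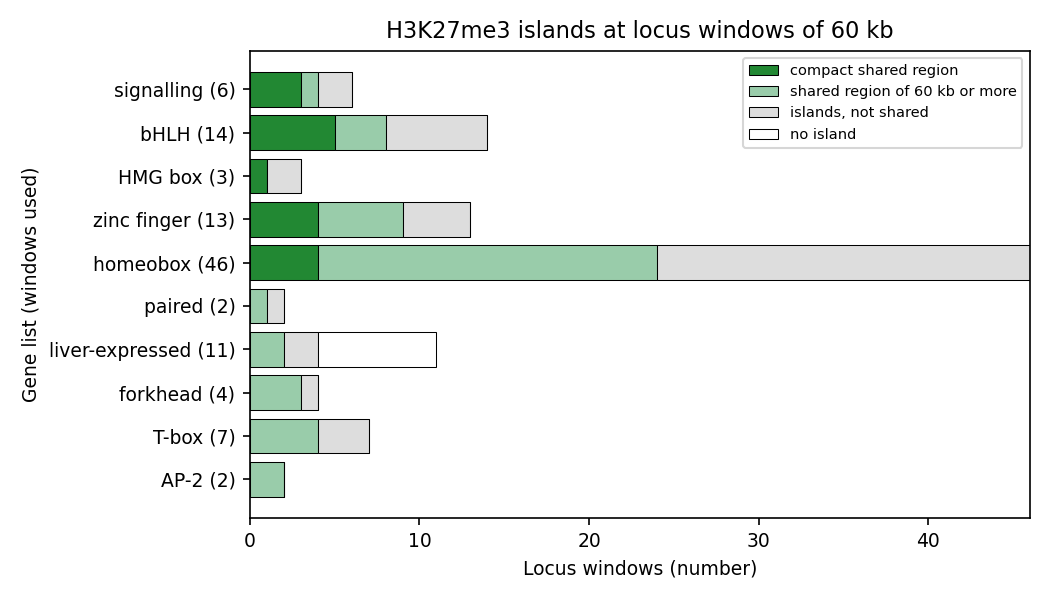
Number of 60 kb locus windows (horizontal axis) by gene list (vertical axis, windows used in brackets), split by what the window held: a compact shared region, a shared region of 60 kb or more only, islands that were not shared, or no island. Compact regions lay in 5 of 14 bHLH windows, 4 of 46 homeobox windows and 0 of 11 liver-expressed windows.

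The plot of windows by gene list shows that families differed in whether their shared region was compact or wide. Compact regions lay at 3 of 6 signalling loci, 5 of 14 basic helix-loop-helix (bHLH) loci and 4 of 13 zinc finger loci. At the homeobox loci they lay at 4 of 46, while 20 had a wide shared region. No compact region lay at the 7 T-box, 4 forkhead, 2 AP-2 or 2 paired box loci, where 4, 3, 2 and 1 had a wide one. The lists were drawn up with results of these data known and are small, so the counts are a description of these genes.

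Wnt1, a secreted ligand that patterns the midbrain and hindbrain, had the densest compact region of the 17 genes. It spanned chr15:98591601-98647600 (56.0 kb). Islands covered 95, 85.7 and 71.4% of it in vehicle replicates 1 to 3 and 90.0, 90.0 and 76.4% in TCPOBOP replicates 1 to 3. Each island carries a score of the authors, and the summed score divided by the length under islands, here called score density, was ranked among the 421 regions within each list. By that rank, with 1 as the densest, the Wnt1 region stood at 11, 18 and 11 with vehicle and at 17, 17 and 18 with TCPOBOP. It was thus among the 20 densest compact regions in every liver. At Fgf8, a growth factor gene of brain and limb patterning, the region chr19:45781201-45823200 (42.0 kb) was 79.0 to 100% covered and ranked 73, 73 and 87 with vehicle and 77, 39 and 69 with TCPOBOP. The region at Shh, a morphogen of the neural tube and limb, spanned chr5:28774001-28810800 (36.8 kb) and was 72.8 to 96.7% covered. Its rank was less even, at 75, 143 and 240 with vehicle and 204, 135 and 238 with TCPOBOP. The Shh region thus stood well above the middle of the ranks in vehicle replicate 1 and below it in the third liver of both treatments.

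Of the bHLH genes, which include the proneural factors, the densest compact region was at Bhlhe22, a gene of retinal and spinal interneurons. It spanned chr3:17939201-17963200, at 24.0 kb, and ranked 43, 22 and 7 with vehicle and 41, 34 and 17 with TCPOBOP. Neurog2, a proneural gene, lay at chr3:127317601-127363600 (46.0 kb) with ranks of 53, 58 and 56 against 85, 81 and 65. All 3 vehicle livers ranked it higher than any TCPOBOP liver, but the region was not called by the test described with the treatment comparison. Hey2, a Notch target of the heart and vessels, had a region of 38.0 kb at chr10:30541201-30579200, ranked between 70 and 195. Olig3, a gene of the dorsal neural tube, and Tcf21, a gene of mesenchyme, had the least dense regions of the 17, with mean ranks of 211 and 209, close to the median of 209 over all compact regions. The Tcf21 region, chr10:22489601-22512800, lay within 30 kb of the start but did not span it.

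Among other transcription factor genes, Zic2, a zinc finger gene of the forebrain, stood highest. Its region chr14:122858801-122901200 (42.4 kb) was covered to 99.1, 100 and 84.0% with vehicle and 93.4, 98.1 and 98.1% with TCPOBOP. The ranks were 14, 10 and 14 with vehicle and 13, 19 and 47 with TCPOBOP, with the lowest place in TCPOBOP replicate 3. Sox2, the HMG box gene of pluripotent and neural progenitor cells, had a region of 58.0 kb at chr3:34518401-34576400. It was covered to 95.9, 77.2 and 74.5% with vehicle and 93.8, 80 and 73.1% with TCPOBOP, and ranked 35, 25 and 41 against 31, 20 and 12. Vehicle replicate 1 and TCPOBOP replicate 1 thus had the broadest islands at Sox2, while its best rank within a list was in TCPOBOP replicate 3. Gata3, a regulator of T cells and the inner ear, lay at chr2:9785201-9835600 (50.4 kb) and ranked 32, 91 and 38 with vehicle and 57, 66 and 68 with TCPOBOP. Osr1, a gene of intermediate mesoderm, ranked between 96 and 273 with a region of 41.2 kb at chr12:9563201-9604400. Nr2f2, which encodes the nuclear receptor COUP-TFII of veins and mesenchyme, ranked between 46 and 136, with a region at chr7:77449201-77494800 that did not span the window's gene start.

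The 4 homeobox genes with a compact region are known from the nervous system, and Isl1 also from the heart. Isl1, at chr13:117079201-117110400 (31.2 kb), was covered to 88.5, 83.3 and 74.4% with vehicle and 75.6, 91.0 and 84.6% with TCPOBOP, and ranked between 93 and 180. Pou4f1, a gene of sensory neurons, lay at chr14:104840001-104883200 (43.2 kb) and ranked between 50 and 130. Barhl1, a gene of hair cells and cerebellum, had 30.8 kb at chr2:28756401-28787200 and ranked between 28 and 106. Emx1, a gene of the dorsal telencephalon, had 58.8 kb at chr6:85110401-85169200 and ranked between 150 and 244.

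Over the 17 developmental loci, the median width of the compact region was 42.4 kb, against 35.6 kb over all 421. Their median of mean ranks was 90.3, and 15 of 17 were denser than the median rank of 209 over all compact regions. The locus list was itself drawn up with earlier results of these data known, so these ranks are a description of the listed genes. Cover did not fall below 54.4% at any of the 17 in any of the 6 lists. In 15 of the 17 the approximate gene start lay inside the region. A further 6 genes were recognised at dense compact regions after the regions had been seen, and they were chosen for those values: Skor1, Sp9, Hmx3, Prdm12, Prdm8 and Dmrta2. Skor1, a corepressor gene of dorsal spinal interneurons, lay at chr9:62973201-63012400 (39.2 kb). Sp9, a zinc finger gene of the limb and striatum, lay at chr2:73093601-73136400 (42.8 kb). Hmx3, a homeobox gene of the inner ear, lay at chr7:138662401-138706800 (44.4 kb) and ranked 12, 15 and 19 with vehicle and 23, 12 and 14 with TCPOBOP.

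**Figure D2:**
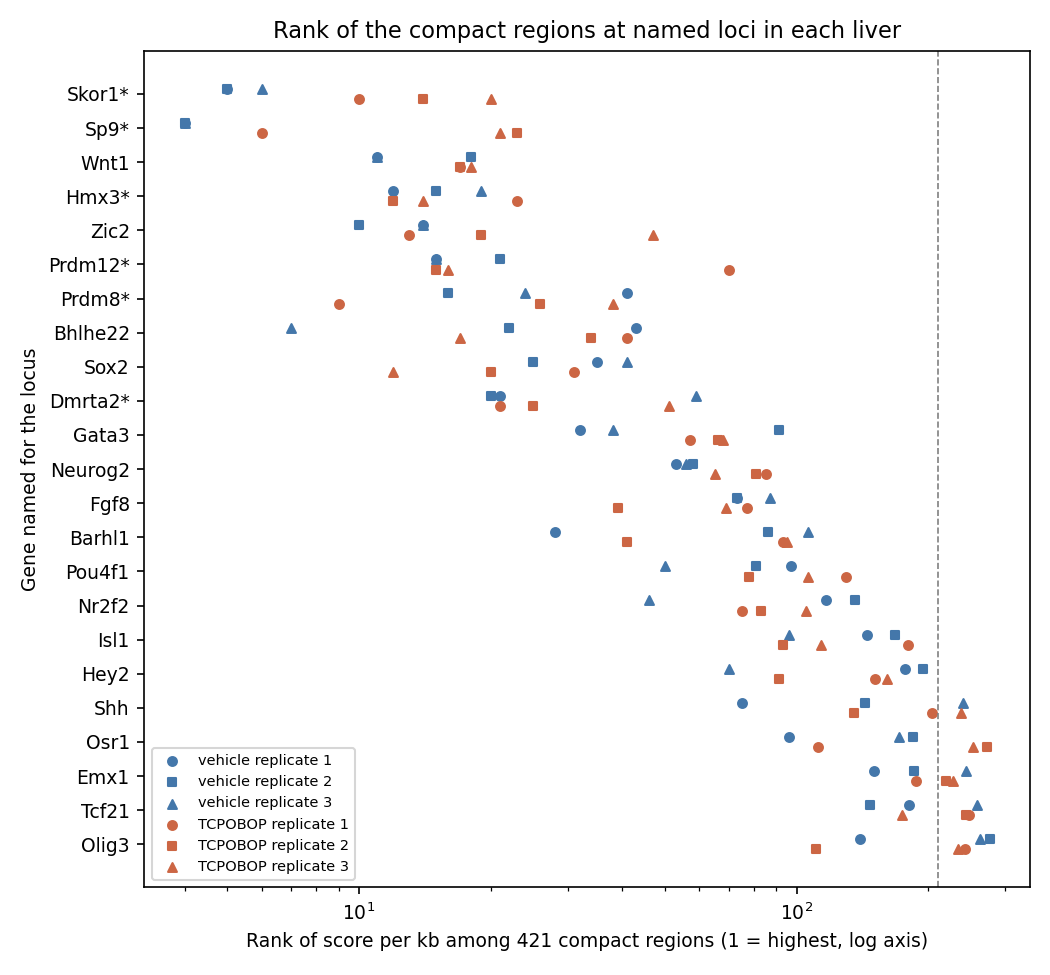
Rank of score per kb among the 421 compact regions (horizontal log axis, 1 is the densest) for each gene named at a compact region (vertical axis), with 1 symbol per liver. Asterisks mark genes recognised after the regions were seen, and the dashed line is the middle of the ranks. The 6 livers of Wnt1 sit between 11 and 18, while those of Shh spread from 75 to 240.

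The plot of ranks by gene shows the spread between livers at each locus, for example 7 to 43 at Bhlhe22 and 150 to 244 at Emx1. The densest compact regions of all were not at a developmental locus of the list. Neighbouring segments on chromosome 2, chr2:77842001-77850400, chr2:77808001-77835600 and chr2:77797201-77802000, ranked 1, 2 and 3 in each of the 6 livers. The first had 18.8, 7.18 and 7.48 times the median score density of compact regions in vehicle replicates 1 to 3 and 32.0, 6.59 and 29.4 times in TCPOBOP replicates 1 to 3. Vehicle replicate 1 and TCPOBOP replicates 1 and 3 were high and the other 3 livers low, so the treatments overlapped. The segment of 27.6 kb and the segment of 4.8 kb were the only compact regions whose start and end were the same in all 6 lists. Mice were from an outbred stock, and the copy number of these segments was not measured here. Next in mean rank came Skor1, with 1.98 to 3.63 times the median density, and Sp9, with 1.96 to 3.82 times.

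The 5 compact regions lowest in mean rank were chr7:138245601-138266800, chr11:103276001-103303600, chr12:113203601-113242800, chr2:127880001-127920400 and chr10:90276001-90306800. Their densities were 0.347 to 0.674 times the median of compact regions. No locus of the list lay at them. They met the cover rule in each liver all the same, and the one on chromosome 7 was 100% covered in vehicle replicate 1 and in both lists of fragments over 1100 bp.

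As a group the compact regions were denser than the lists they came from. The rule asked for cover in all 6 lists, so part of this difference can follow from the selection, which was not tested. Values of regions pool their islands, while list medians are over single islands. In vehicle replicates 1 to 3 the median score density was 11.8, 12.9 and 8.23 per kb, against 6.62, 6.65 and 5.76 over all islands of the same list. In TCPOBOP replicates 1 to 3 it was 9.60, 8.92 and 6.73 per kb, against 5.88, 5.63 and 5.01. The share of compact regions above the list's own median was 90.5, 92.9 and 82.7% with vehicle and 88.6, 89.8 and 79.8% with TCPOBOP. Wide shared regions had much the same density, with medians of 12.05, 11.9 and 7.84 per kb with vehicle and 9.20, 8.66 and 6.39 with TCPOBOP. Scores depend on each list's background, so densities are compared within a list and not between lists.

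Width, position and cover were what chose the regions, and they are described here without a test. Widths ran from 4.8 to 59.6 kb, with quartiles of 26.0 and 45.6 kb, and 4 regions were under 10 kb. The narrowest were 2 of the chromosome 2 segments and chr7:96722401-96730800 (8.4 kb), and the widest were chr17:51934401-51994000 (59.6 kb), chr13:96283601-96342800 (59.2 kb) and chr17:28476801-28535600 (58.8 kb). Just over the width limit, at 60 kb, lay chr10:23384001-23444000, chr15:60711201-60771200 and chr2:114070001-114130000. Within 5 kb of the limit there were 29 compact regions below it and 31 shared regions at or above it. At the cover limit, chr1:189292401-189317200, chr10:80285201-80316400 and chr12:113203601-113242800 had exactly 50% in their lowest liver. Just outside it, chr8:130430001-130489600 and chr1:174247201-174306000 had 49.7% and chr9:99740001-99794000 had 49.6%. Within 5 percentage points of the cover limit there were 118 compact regions above it and 142 autosomal regions under 60 kb below it.

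Islands of the 6 livers overlapped in a common core with ragged edges. The stretch under islands in all 6 livers had a median length of 16.4 kb, or 51.6% of the region (quartiles 41.5 and 62.1%). Summed over the 421 regions this core was 7.54 Mb, 50.4% of their length, while 8.93% of their length lay under an island in 1 liver alone. The core was at least 50% of the region in 231 of 421, was the whole region in 2, and was missing in 1, chr17:27786401-27829600, where cover was 58.3 to 79.6% but no window was common to all. The first island start of the 6 livers differed by a median of 6.8 kb from the last (quartiles 3.6 and 10.8 kb), and the ends by as much. At 256 regions (60.8%) each of the 6 lists held a single island.

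**Figure D3:**
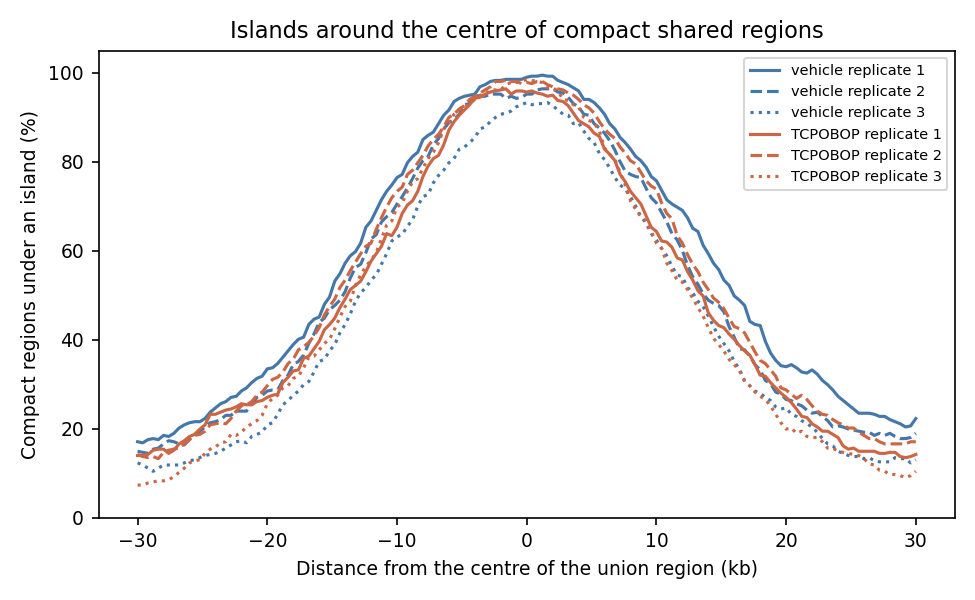
Percent of the 421 compact regions under an island (vertical axis) by distance from the centre of the union region in kb (horizontal axis), 1 line per liver. At the centre the 6 livers lie between 93.3 and 99.05%, and at 20 kb to the right between 19.95 and 34.0%.

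The profile around the centre describes the islands by liver. Its height at the centre follows largely from the rule, since a single island over 50% of a region reaches its midpoint, and nothing is read from it. At the centre 99.05, 95.2 and 93.3% of the compact regions were under an island in vehicle replicates 1 to 3 and 95.7, 97.9 and 98.6% in TCPOBOP replicates 1 to 3. At 10 kb to the right these values were 75.8, 70.8 and 62.5% and 64.4, 73.9 and 61.8%. Mean cover of the regions was 85.4, 78.5 and 71.4% with vehicle and 75.8, 81.2 and 76.5% with TCPOBOP. Vehicle replicate 3 had the lowest cover of the 6 livers at 153 of the 421 regions and vehicle replicate 1 at 27. In total length the vehicle lists came to 340, 284 and 196 Mb, the TCPOBOP lists to 248, 280 and 174 Mb. The list of vehicle replicate 1 was thus the longest of the 6, and the part of list length in these cover values was not tested.

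**Figure D4:**
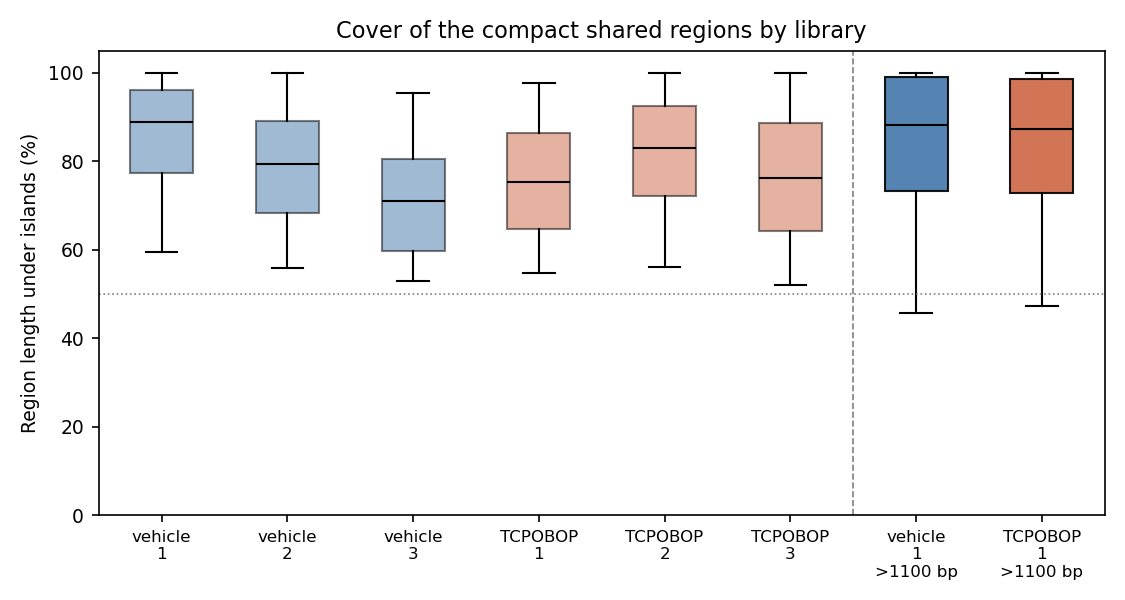
Percent of region length under islands (vertical axis) in each of the 8 libraries, with the median as a line, the quartiles as the box and the 5th and 95th percentiles as whiskers over the 421 compact regions. The dotted line is the 50% rule, which applied to the 6 lists left of the dashed line. Medians run from 71.1 to 89.0% in those 6 and are 88.1 and 87.4% in the 2 libraries of fragments over 1100 bp.

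Fragments over 1100 bp were not used to choose the regions. They came from the ChIP samples of replicate 1, with 1 library per treatment, so their values have no replicate check. Shorter fragments of the same ChIP samples gave lists used in the cover rule, so these libraries are not independent of the selection. Their lists came to 654 Mb for vehicle and 676 Mb for TCPOBOP, against 174 to 340 Mb for the lists of the rule. The part of the shared samples and of list length in the cover values was not tested. Cover had a mean of 82.4% in the vehicle library and 82.3% in the TCPOBOP library. At least 50% of the region was covered at 394 (93.6%) and 392 (93.1%) of the 421 regions, and at 382 in both. Among autosomal regions under 60 kb that were not shared, the same was true of 70.5 and 73.0%, and among wide shared regions of 98.3% in both libraries. The island over a compact region had a median width of 31.8 kb for vehicle and 31.0 kb for TCPOBOP. Regions under 60 kb that were not shared had much the same, 34.4 and 29.6 kb, while wide shared regions, which were chosen for width, had 98.8 and 89.2 kb. It stayed under 60 kb at 348 of the 412 compact regions with an island in the vehicle library (84.5%) and at 364 of 416 in the TCPOBOP library (87.5%), against 72.8 and 77.7% of the unshared regions with an island. At the 17 developmental loci at least 77.2% of the region was covered in both libraries, but the island was wider at some. At Neurog2 the island over the region measured 145 kb in the vehicle library and 40.4 kb in the TCPOBOP library. At Barhl1 it measured 126 and 82.8 kb and at Pou4f1 116 and 92.8 kb. At Wnt1 it measured 47.2 kb in both.

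Cover was listed at 0% for 9 compact regions in the vehicle library and 5 in the TCPOBOP library. At 4 of them this was so in both: chr4:154597601-154626400, chr5:81894801-81918000, chr4:71495601-71516400 and chr3:142359601-142374400. The stretches without an island around the 10 regions concerned were 128 to 3335 kb long. Rows of these 2 lists may be missing, so 0% there says nothing about the mark itself. In the 6 livers the first 3 of these 4 regions had 0.436 to 1.07 times the median density, and the other one had 0.859 to 1.85 times.

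Compact regions were spread over all autosomes and lay farther from other shared regions than wide ones did. Chromosome 2 held the most, 38, and chromosome 16 the fewest, 7. These were 3.35 and 1.43% of the union regions of these chromosomes, against 2.89% over all union regions. By that share chromosome 10 stood highest, with 4.02%. Compact regions made up 72.1% of the shared regions of chromosome 3, 71.8% of chromosome 10 and 68.8% of chromosome 17. They made up 33.8% of those of chromosome 11 and 30.6% of chromosome 19. The nearest other shared region was a median of 532 kb away, against 312 kb for wide shared regions. It lay within 50 kb for 78 of 421 compact regions (18.5%) and 115 of 420 wide ones (27.4%). Distances were taken from edge to edge, and width was part of the rule. The part of width in these distances was not tested.

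The remaining question was whether livers with TCPOBOP differed from vehicle livers in where the score was densest. It was tested with limma on the rank of score density, turned into a normal score (a rank placed on a bell curve with mean 0) over all 841 autosomal shared regions of each list. Every list holds the same set of ranks, so a change common to all shared regions cannot be seen by this test. Score density is divided by the length under islands, which the cover rule also used, so the tested value is not independent of cover. At an adjusted p of 0.05, limma called 0 of 841 regions (0.0%), and so 0 of the 421 compact ones, with a lowest adjusted p of 0.458. At an unadjusted p under 0.05 limma counted 44 of 841 regions (5.23%), of which 32 were compact, or 7.60% of these, and 12 were wide. When the 421 compact regions were ranked and fitted alone, the count among them was 25. Of the 32, 19 were higher and 13 lower with TCPOBOP. Livers of the 2 treatments did not overlap at 81 of 841 regions (9.63%) and at 41 of 421 compact regions (9.74%), a share near that of all regions. They were higher with TCPOBOP at 20 of these 41 (4.88% of all 841 regions were) and lower at 21 (4.76% of all 841). The median SE of the difference was 0.323 normal score units over the compact regions, so small shifts at single regions were not detectable with 3 livers against 3. The median difference over the compact regions was -0.04, but ranks within each list hold the mean over all 841 regions close to 0. The 0 calls do not show that densities were equal.

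**Figure D5:**
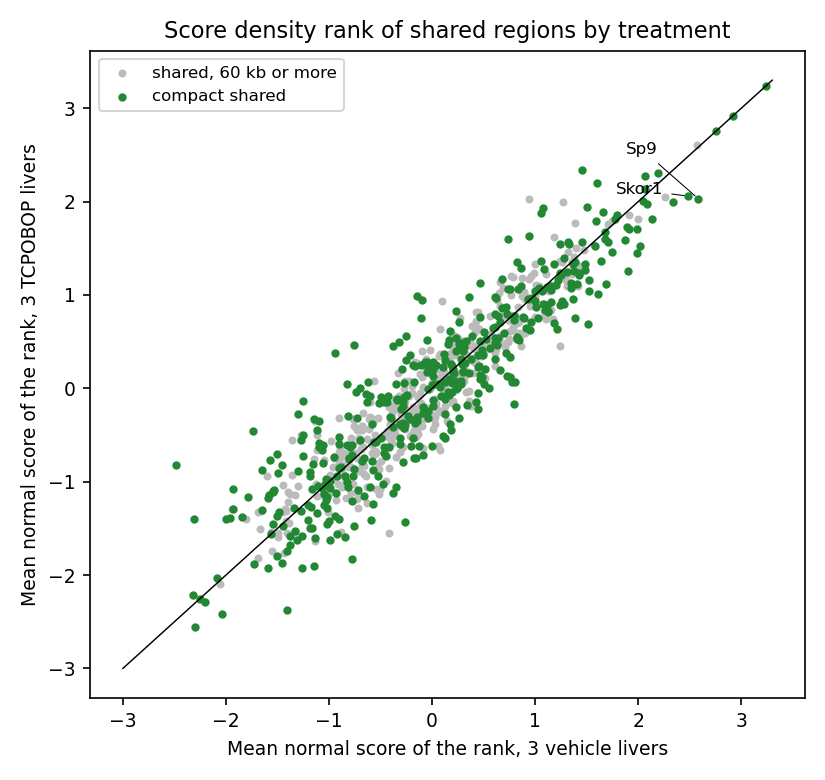
Mean normal score of the rank of score per kb in the 3 TCPOBOP livers (vertical axis) against that in the 3 vehicle livers (horizontal axis), 1 point per shared region, compact regions in green and those of 60 kb or more in grey, with the line of equality. No point was called by limma. The Skor1 and Sp9 regions lie below the line, and the 3 chromosome 2 segments lie on it at the upper right.

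In the plot of normal scores the 421 compact regions lie on both sides of the line of equality, which follows largely from ranking within each list. For the 5 with the smallest limma p, ranks are given among the 421 compact regions, while each difference rests on ranks over all 841 shared regions. Region chr11:24468401-24480800 (12.4 kb) ranked 83, 134 and 138 with vehicle and 36, 32 and 40 with TCPOBOP. Its normal score was 0.86 higher with TCPOBOP (SE 0.178, limma adjusted p = 0.458). Region chr13:23478801-23510000 (31.2 kb) ranked 33, 80 and 40 against 15, 6 and 4, a difference of 0.88 (SE 0.186, limma adjusted p = 0.458). In both, every TCPOBOP liver ranked above every vehicle liver. The other 3 went the opposite way, again without overlap. The Skor1 region ranked 5, 5 and 6 with vehicle and 10, 14 and 20 with TCPOBOP, a difference of -0.43 (SE 0.0949, limma adjusted p = 0.470). Region chr1:36785201-36806400 (21.2 kb) ranked 289, 235 and 239 against 387, 344 and 396, a difference of -1.17 (SE 0.276, limma adjusted p = 0.522). Region chr15:99041201-99078400 (37.2 kb) ranked 25, 14 and 13 against 50, 54 and 32, a difference of -0.54 (SE 0.138, limma adjusted p = 0.528). None of the 5 was called, and they were picked by their p, so their lack of overlap is no separate finding. Cover at the Skor1 region was 90.8, 75.5 and 64.3% with vehicle and 87.8, 100 and 87.8% with TCPOBOP. On chromosome 1 it was 96.2, 71.7 and 50.9% against 92.5, 98.1 and 98.1%. On chromosome 13, where density was higher with TCPOBOP, it was 82.1, 80.8 and 71.8% against 96.2, 96.2 and 71.8%. The part of cover in these differences was not tested. On ranks of the summed score in place of the density, 4 of the 5 differences shrank by over 1.5 times, for example to 0.18 for the region on chromosome 11 and -0.17 for that on chromosome 1.

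The Sp9 region was called with 1 liver left out. It ranked 4 in each vehicle liver and 6, 23 and 21 in TCPOBOP replicates 1 to 3, a difference of -0.55 (SE 0.153, limma adjusted p = 0.528). Without TCPOBOP replicate 1 the difference was -0.75 (SE 0.0673, limma adjusted p = 0.0123), the only call among 11 alternative fits. Its cover went the other way, with 62.6, 60.7 and 62.6% for vehicle replicates 1 to 3 and 70.1, 84.1 and 85.0% for TCPOBOP replicates 1 to 3. With the summed score in place of the density and all 6 livers, the Sp9 region was not called. A fit of the summed score without TCPOBOP replicate 1 was not run, so the call was not checked on that measure.

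The order of the compact regions by score density was much alike in all livers, whatever the treatment. Over the 421 regions, Spearman's rho between 2 livers ran from 0.719 (vehicle replicate 1 and TCPOBOP replicate 3) to 0.872 (vehicle replicate 2 and TCPOBOP replicate 1). Regions are not independent replicates, and they share the width of their union in all lists. The mean was 0.779 over the 6 pairs of the same treatment and 0.791 over the 9 pairs of different treatments. The difference of -0.0113 was within the spread of the other splits (two-sided exact permutation p = 0.4 over 10 splits, with 0.1 the smallest possible). It was 0.000661 with the summed score and 0.0112 without TCPOBOP replicate 1, so its direction changed with these settings.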

How the data were processed

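The deposited lists give each island's position and a score, the authors' own value against a background modelled for that library. Per the submitters' processing notes, Bowtie2 2.3.2, SICER 1.1 and the build mm9 were used, without their roles. The names of the deposited lists give a 400 bp window and a 2400 bp gap, and islands were called per library. Whether an input was used is not given in the sources here. Per the labels, 600 to 1100 bp fragments were digested to 500 bp, fragments over 1100 bp to 200 bp, and all libraries share a flow cell lane.

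The lists hold no read counts, so depth is unknown and no counting interval was computed. Islands numbered 6295 to 14748 in the 6 lists of 600 to 1100 bp and 17577 and 22077 in the 2 others. Coordinates are 1-based.

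Islands were merged over the 6 lists and score density was ranked within each list. Normal scores of the ranks of 841 shared regions went into limma (version 3.58.1, run in R 4.3.3) with its variance trend, and p-values were adjusted by the Benjamini-Hochberg method and called at 0.05. The script was tested on simulated data. Similarity of livers was tested with an exact permutation test over splits of the livers. Merging and figures were done in Python 3.11.15 with pandas 2.3.3, numpy 2.4.6 and matplotlib 3.10.9. Alternatives changed the cover and width limits, the score measure, the trend, the replicate block, the score minimum, the covered length and the livers used. The locus window and the chromosome 2 segments were varied after the data had been seen.

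Named regions were the 5 highest and 5 lowest in mean rank, those with the same edges in all 6 lists, the 3 narrowest, the 3 widest, the 3 just over the width limit, the 5 with the smallest limma p, those not covered in either list of fragments over 1100 bp, and those at a locus. Regions at the cover limit, the one without a core and the 6 added genes were chosen after their values were seen. The regions and gene lists were chosen with earlier results of these data known. All 116 loci were found in the GRCm38.p6 gene table, and 8 (Hlx, Gsc, Alx1, Sim2, Pax7, Myod1, Hand2, Cyp7a1) were left out because no spacing to a listed neighbour came within 100 kb of the table's.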

Additional observations from a re-analysis of the deposited data

How the results depend on the processing

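The number of compact regions depended on the limits that define it. It was 421 as reported, 33 with cover of at least 80%, 1749 with any cover, 151 under 30 kb and 683 under 120 kb. With every list cut to the covered length of the shortest it was 258, and with the score minimum 309. Leaving out 1 liver asks for fewer lists and gave 500 to 802 regions, 665 without vehicle replicate 1, 634 without vehicle replicate 3 and 802 without TCPOBOP replicate 3. Limma called 0 regions in 10 of 11 alternative fits and 1, the Sp9 region, without TCPOBOP replicate 1, so the counts with 1 liver left out ran from 0 to 1. The lowest adjusted p ranged from 0.0123 to 0.901 over these fits. With the replicate number as a block, limma called 0 regions, with a lowest adjusted p of 0.367 and 50 regions at an unadjusted p under 0.05. Livers of the same number had deviations from their group means that correlated by 0.0816, -0.0607 and 0.112, so the numbers were not taken as pairs. The 5 regions with the smallest p kept their direction in all 11 alternatives, but most of these fits could not have reversed it. Leaving out 1 liver cannot reverse a difference without overlap, and the trend and block settings leave the difference unchanged. With the summed score the differences were closer to 0. They were 0.18 on chromosome 11, 0.69 on chromosome 13, -0.14 at Skor1, -0.17 on chromosome 1 and -0.27 on chromosome 15.

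The difference in similarity within and between treatments, -0.0113, turned to 0.000661 with the summed score and 0.00478 with Pearson's r on log2 density. With 1 liver left out it ran from -0.0234 to 0.0112, and the last value, without TCPOBOP replicate 1, was the only one of these above 0. Without the chromosome 2 segments it was -0.0116. The cause of these changes was not tested. Windows of 15 and 60 kb to each side met compact regions at 16 and 18 of the 97 developmental loci. Depth limits the lists in a way that cannot be given, since they hold no counts.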

Other observations

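Outside the autosomes, 2 regions met the same cover rule, both under 60 kb. The region chrX:90519601-90547600 was covered to 91.4, 91.4 and 70.0% with vehicle and 85.7, 94.3 and 97.1% with TCPOBOP, and to 92.9 and 94.3% in the vehicle and TCPOBOP libraries of fragments over 1100 bp. The region chrY:1785601-1793200 (7.6 kb) was covered to 68.4% in 5 livers and to 100% in TCPOBOP replicate 2. Its score density within each list was set beside that of the chromosome 2 segment chr2:77842001-77850400. It was 143 against 221 per kb in vehicle replicate 1, 203 against 92.9 in vehicle replicate 2 and 165 against 61.6 in vehicle replicate 3. With TCPOBOP it was 163 against 308 in replicate 1, 131.7 against 58.8 in replicate 2 and 220.1 against 198 in replicate 3. The region on Y was thus the denser of the pair in 4 of the 6 livers. Autosomal rules left both out of every comparison.

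Score densities of the compact regions were also compared between fragment sizes as a description. Spearman's rho between a library of fragments over 1100 bp and one of the 6 livers was 0.444 to 0.665 over the 412 or 416 compact regions with an island in the former, lower than the 0.719 to 0.872 between livers. For the long fragments, density was taken over the full width of each overlapping island, also outside the region, while islands of the 6 livers lie within it. The 2 ranges of rho are thus not on equal terms. The points share their regions, and each of the 2 long-fragment libraries shares its ChIP sample with replicate 1 of its treatment.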
